A study of Rattus norvegicus with 6 samples.

Results

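Nuclear receptors are transcription factors that bind small lipophilic molecules and switch genes on or off, and 9 genes of this family are described here in the renal cortex of rats given o-anisidine. The 9 are Esr1, Nr3c1, Nr3c2, Vdr, Ppara, Nr1i2, Nr1i3, Nr1h4 and Rxra, which encode receptors for steroids, vitamin D, lipids, bile acids and foreign compounds. They were taken by name, as all array probes whose RefSeq accession belongs to one of these symbols. All 9 symbols were found, through 21 of 61657 probes. They are 9 of 15284 genes that carried a symbol on the array. The 9 were selected on the log2 signals of these same arrays, since the list was drawn up with the differences between o-anisidine and control known. The members' differences are therefore given as a description, without a test.

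Each array held labelled RNA of the renal cortex of 1 male Sprague-Dawley (Crl:CD(SD)) rat. Animals were bought at 5 weeks of age. The 3 control rats were given water, and the 3 treated rats were given o-anisidine hydrochloride, the salt of an aromatic amine, at 700 mg/kg/day, both for 4 weeks. The series describes the 3 arrays of each group as biological replicates, and their number limits the precision of every value.

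A nuclear receptor has a zinc-finger domain that reads short DNA half-sites and a pocket that holds its ligand. Steroid receptors wait with heat-shock chaperones in the cell until a hormone arrives and then act mostly as pairs of the same kind. The vitamin D, PPAR, pregnane X, constitutive androstane and farnesoid X receptors work as partners of the retinoid X receptors, of which Rxra encodes one. In the kidney, the mineralocorticoid receptor drives sodium uptake in the distal nephron, and the vitamin D receptor governs calcium transport and the breakdown of active vitamin D.

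The promoters of Esr1 and Vdr are shown because, among members well above background on all 6 arrays, these have the largest differences without overlap between the groups, 1 lower and 1 higher. Each window runs from 250 bases before to 50 bases after a RefSeq transcription start on assembly GRCr8, written 5′ to 3′ along the gene. Capitals mark matches, on either strand, to the dioxin response core read by the aryl hydrocarbon receptor (GCGTG), the nuclear receptor half-site (AGGTCA), the steroid receptor half-site (AGAACA) and the GC box (GGGCGG). The Esr1 window is chr1:43641845-43642144 on the plus strand, and that of Vdr is chr7:130916708-130917007 on the minus strand.
Esr1: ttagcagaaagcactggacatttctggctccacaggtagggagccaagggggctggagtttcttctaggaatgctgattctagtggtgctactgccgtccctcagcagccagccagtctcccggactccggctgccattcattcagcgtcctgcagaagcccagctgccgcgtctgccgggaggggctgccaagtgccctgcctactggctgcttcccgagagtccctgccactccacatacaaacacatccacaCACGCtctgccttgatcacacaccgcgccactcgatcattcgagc
Vdr: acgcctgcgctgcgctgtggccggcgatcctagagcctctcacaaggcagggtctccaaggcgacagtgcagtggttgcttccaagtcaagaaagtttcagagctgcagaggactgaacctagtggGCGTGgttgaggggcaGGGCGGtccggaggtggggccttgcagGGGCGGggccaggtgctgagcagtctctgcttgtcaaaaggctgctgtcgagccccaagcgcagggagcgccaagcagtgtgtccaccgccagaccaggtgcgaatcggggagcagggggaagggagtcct
The Esr1 window holds 1 dioxin response core and no other of these motifs. The Vdr window holds 1 dioxin response core and 2 GC boxes, none of them overlapping. Among 33469 RefSeq promoter windows of this length, 29.7% hold the dioxin response core, 16.2% the nuclear receptor half-site, 20.7% the steroid receptor half-site and 33.1% the GC box. The matches are descriptions of letters in a window, not of bound sites.

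All values below are log2 of the processed signal relative to the upper quartile of the array's probes, so that 0 is the 75th percentile and 1 unit is a 2-fold step. A level of 1 probe is compared between arrays and never with another probe. Probes well above background numbered 43075 to 43630 on the control arrays and 41670 to 42766 on the treated arrays, and no spot was saturated. The 75th percentile signal was 985.5 to 1030.5 on controls and 922.9 to 962.9 after o-anisidine. The part of this in the values of dim probes was not tested. The dimmest spot to count as well above background lay between -6.19 and -6.07 in controls and between -5.98 and -5.80 after o-anisidine. Proximal tubule markers (10 of 10) and podocyte markers (6 of 6) passed the filter on dim probes, which asks for a signal well above background throughout 1 group. Of 7 liver markers, Apoc3 and Ahsg passed, while Alb, Apoa1, Serpina1, Tat and Cps1 did not. Of 7 adrenal markers, Cyp11b2, Cyp11a1 and Cyp17a1 passed, while Cyp11b1, Star, Nr5a1 and Mc2r did not. Slide 1 carried o-anisidine 3 together with the 3 controls while slide 2 carried o-anisidine 1 and 2, so a comparison within 1 slide rests on o-anisidine 3 alone.

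Among the steroid receptors, Esr1 was lower on every treated array, Nr3c1 was lower by a small and even amount, and Nr3c2 gave no consistent picture. Esr1 encodes estrogen receptor alpha. Its only probe read -4.25, -4.27 and -4.62 on controls 1, 2 and 3, and -4.93, -5.17 and -5.17 on o-anisidine 1, 2 and 3. All treated values lie below all control values, and close to the dimmest spots that counted as well above background on the treated arrays. The means were -4.38 ± 0.21 (SD, n = 3) and -5.09 ± 0.14 (n = 3), a log2 difference of -0.71 (SE 0.13), or 1.64-fold lower after o-anisidine. In these tissue samples, fewer cells of a type and less RNA per cell cannot be told apart.

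The Esr1 signal was dim. In units of processed signal it was 54.3, 51.1 and 40.2 on the controls and 31.5, 25.7 and 25.98 on the treated arrays, where the dimmest spot above background had 13.5 to 14.7 and 15.3 to 16.8. With normexp background correction, which adds an offset of 50 to every spot, the log2 difference was -0.19. Among all 31087 tested genes, 3.19% had a log2 difference at least as large in size as that of Esr1 in the main processing.

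Nr3c1 encodes the glucocorticoid receptor, the target of corticosterone in rats. Its brightest probe read 1.32, 1.30 and 1.24 on the controls and 1.15, 1.18 and 1.15 after o-anisidine. The groups did not overlap, and the spread within each was narrow, with SDs of 0.04 and 0.02. The log2 difference was -0.13 (SE 0.06), and -0.21 with normexp correction. Another probe had -0.14 with no overlap, and the third had -0.22 with overlap, so all 3 probes pointed the same way.

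Nr3c2 encodes the mineralocorticoid receptor, which binds aldosterone. Its brightest probe read 0.71, 0.73 and 0.49 on the controls and 0.21, 0.46 and 0.69 after o-anisidine, so the groups overlapped. The log2 difference of -0.19 (SE 0.14) rested largely on o-anisidine 1: it was -0.07 without o-anisidine 1, -0.20 without o-anisidine 2, -0.31 without o-anisidine 3, and 0.04 within the shared slide. A dim further probe had a difference of -0.30 and also overlapped. It read -5.06, -5.28 and -5.49 on the controls and -5.15, -6.19 and -5.39 after o-anisidine. The value on o-anisidine 2 was not well above background, and the other treated values lay within the control range. The third probe was between -5.30 and -5.00 on 5 arrays and at -1.79 on o-anisidine 3, which was 9.26-fold above the next highest array. The other probes lay within their control range on that array. The third probe's log2 difference was 1.05 with that array and -0.10 without it, and the mean of the 3 probes differed by 0.19.

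Vdr, the vitamin D receptor, was the one member higher on every treated array than on every control array. Its brightest probe read 0.02, -0.04 and 0.08 on the controls and 0.27, 0.37 and 0.48 after o-anisidine. The means were 0.02 ± 0.06 and 0.37 ± 0.10 (SD, n = 3 each), a log2 difference of 0.35 (SE 0.08), or 1.27-fold higher. The second probe read -2.11, -2.15 and -2.13 against -2.04, -1.95 and -1.85, without overlap and with a smaller difference of 0.19. On both probes o-anisidine 3, which shares its slide with the controls, had the highest value of all, so the difference was also present within the slide (0.45).

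Ppara encodes PPAR-alpha, the fatty acid sensor that governs fat oxidation. It was high on o-anisidine 1 and 2 and low on o-anisidine 3: its brightest probe read -0.31, 0.12 and -0.17 on the controls and 0.56, 0.67 and -0.54 after o-anisidine. The first pair lies above all controls and the last value below all controls. The second probe followed the same course, at -0.28, 0.10 and -0.25 against 0.43, 0.54 and -0.52, and correlated with the first at r = 0.996 over the 6 arrays. The log2 difference of 0.35 (SE 0.33) was 0.73 without o-anisidine 3, 0.18 and 0.13 without o-anisidine 1 and 2, and -0.42 within the shared slide. The high arrays are those of the second slide, and the part of the slide in this difference was not tested. Of all tested genes, 4.05% had o-anisidine 1 and 2 above and o-anisidine 3 below all controls.

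Nr1h4, the farnesoid X receptor for bile acids, and Nr1i2, the pregnane X receptor for drugs and steroids, had group means that differed by less than the spread within groups. Nr1h4 read 4.97, 4.92 and 4.60 on the controls and 4.61, 4.94 and 4.92 after o-anisidine on its brightest probe. The log2 difference was -0.0047 (SE 0.14), and its 3 probes lay between -0.11 and -0.0047. Nr1i2 read 2.35, 2.64 and 2.39 on the controls and 2.45, 2.61 and 2.40 after o-anisidine, with a difference of 0.03 (SE 0.11) and 0.01 on its other probe. Both differences changed sign when single arrays were left out. Rxra, the shared partner of these receptors, read -2.68, -2.47 and -2.71 against -2.59, -2.58 and -2.85, with a log2 difference of -0.05 (SE 0.11) that was 0.02 without control 2, 0.04 without o-anisidine 3 and -0.23 within the slide.

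Nr1i3 encodes the constitutive androstane receptor, known mainly from the liver, where it senses foreign compounds together with Nr1i2. Only 1 of its 4 probes was well above background on all controls. That probe read -4.60, -4.49 and -5.06 on the controls and -5.76, -5.26 and -5.38 after o-anisidine, where the first of the treated values was not well above background. The groups did not overlap, and the log2 difference was -0.75 (SE 0.20), or 1.68-fold lower, but -0.10 with normexp correction. The 3 other probes were not well above background on any array, with log2 values of -8.38 to -6.81. Their log2 differences went the other way, at 0.31, 0.13 and 0.67, the first of them without overlap. The arrays therefore show Nr1i3 near background in renal cortex, on a single probe.

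**Figure D1:**
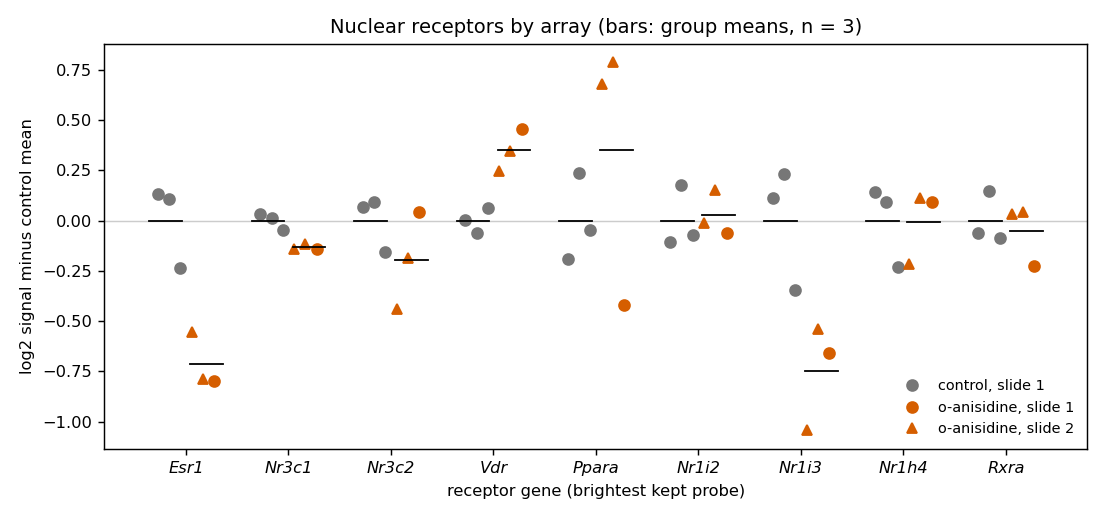
Log2 signal of the brightest kept probe of each receptor gene, minus that probe's control mean (y axis), for each of the 6 arrays; bars are group means (n = 3), circles are arrays of the slide that holds both groups and triangles those of the other slide. Esr1 and Nr1i3 lie 0.71 and 0.75 below the control mean on average, Vdr lies 0.35 above it, and Ppara splits by slide.

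Read together, 1 member was higher and 3 were lower without overlap between the groups, and 5 overlapped. Over all tested genes, 9.55% were higher and 8.88% lower without overlap, 18.4% in all. The members' median log2 difference was -0.05, and that of all genes was 0.0037. Nothing is read from these counts, since the members were chosen with the same comparison known. Of the members' probes, 18 were kept for testing, of which 2 were higher, 4 lower and 12 overlapped, against 9.17% higher and 9.6% lower, 18.8% in all, among the kept probes.

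**Figure D2:**
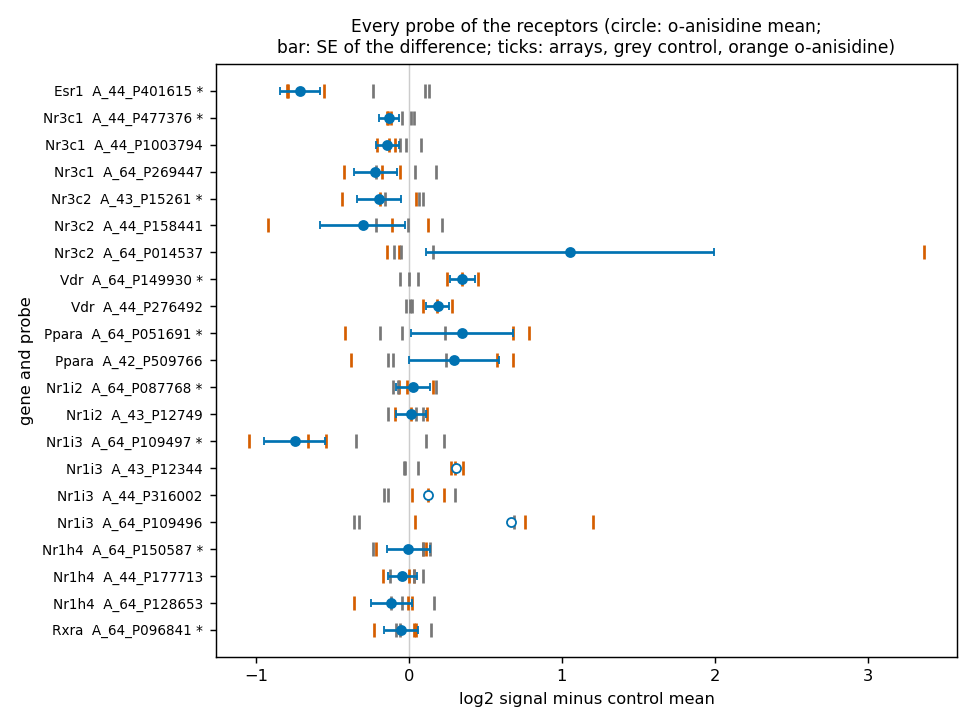
Every probe of the receptor genes, with the log2 signal of each array minus the probe's control mean on the x axis (grey ticks control, orange ticks o-anisidine), the mean of the treated arrays (circle) and the SE of the group difference (bar); open circles are the 3 Nr1i3 probes not well above background, and asterisks mark the brightest kept probe of a gene. The 2 Vdr probes and the 3 Nr1h4 probes agree, whereas the third Nr3c2 probe departs on o-anisidine 3 alone.

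The genes whose signal tracked Esr1 most closely over the 6 arrays were Clip3 and Rnf208 (Pearson r = 0.992 each), Zfp622 (0.991), Trafd1 (0.984) and Dnaaf8 (0.982). These correlations rest on 6 arrays, are carried in part by the difference between the groups, and are a description only. Of 12006 other genes with a symbol, 44 had r above 0.95. After each group mean was subtracted, none of these 5 was again among the closest, which were Gimap4 (0.993), C8h3orf18 (0.990), Cep70 (0.989), Dclk3 (0.989) and Hs6st1 (0.988). Clip3 had a log2 difference of -0.49 (SE 0.10) and Gimap4 one of 0.0058 (SE 0.14).

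The wider family was measured through 26 other nuclear receptor genes of 40 listed. By limma with Benjamini-Hochberg adjustment, 0 of these 26 passed the threshold of 0.05, where 0.0611% of all genes did (11 higher, 0.0354%, and 8 lower, 0.0257%). Of the 26, 2 higher and 3 lower genes had an unadjusted p under 0.05, as did 6.36% (higher) and 5.14% (lower) of all genes, the shares against which such counts in the lists that follow are to be set. The groups did not overlap for 1 higher and 3 lower genes, and the median log2 difference was -0.01. Hnf4a, a receptor that controls many proximal tubule genes, had the smallest p: it read 0.57, 0.36 and 0.63 on the controls and -0.04, -0.32 and -0.22 after o-anisidine. Its log2 difference was -0.71 (SE 0.11, adjusted p = 0.115), and its 3 probes ranged from -0.71 to -0.28. Ppard, the widely expressed relative of Ppara, was the one higher without overlap, with a difference of 0.42 (SE 0.10, adjusted p = 0.229) on its brightest probe and as little as 0.05 on another.

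The other lower genes without overlap were Thrb, a thyroid hormone receptor (-0.27, SE 0.10, adjusted p = 0.407), and Nr2f2, an orphan receptor of stromal and venous cells (-0.23, SE 0.09, adjusted p = 0.429). Nr1d1, a clock repressor, had the largest positive difference of the family at 0.89 (SE 0.58), with overlap between the groups. It read -2.63, -1.60 and -3.36 on controls 1, 2 and 3 and -1.73, -0.75 and -2.43 on o-anisidine 1, 2 and 3. The order by replicate number was the same in both groups, and the SE takes no account of these numbers. The second estrogen receptor, Esr2, and the progesterone receptor, Pgr, did not pass the filter on dim probes. Rxrb and Rxrg, the other retinoid X receptors, had differences of -0.0071 (SE 0.10) and -0.15 (SE 0.18). Thrb, Nr2f2, Nr1d1, Rxrb and Rxrg were named after their values were seen.

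**Figure D3:**
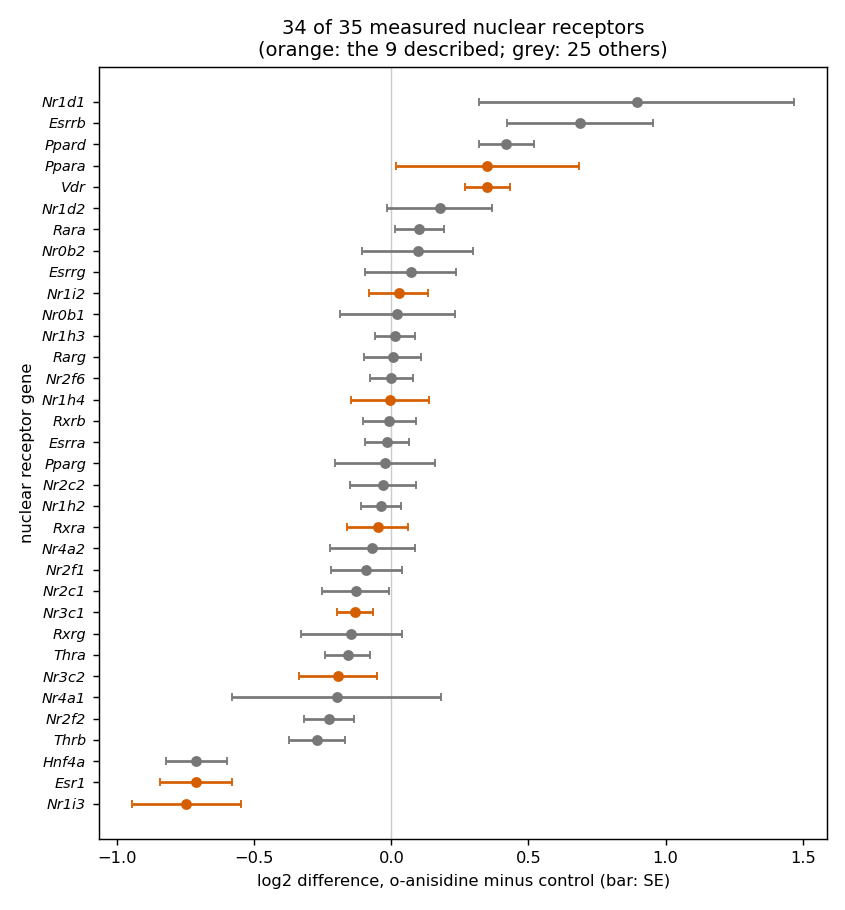
Log2 difference between o-anisidine and control (x axis) with its SE (bar, n = 3 per group) for 34 of the 35 nuclear receptor genes measured, the 9 described in orange and 25 others in grey. Nr1i3, Esr1 and Hnf4a have the most negative differences (-0.75, -0.71 and -0.71) in this processing, but with normexp correction the dim Nr1i3 and Esr1 stand at -0.10 and -0.19, beside -0.21 for both Nr3c1 and Nr3c2.

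The measured cofactors that receptors recruit were close to even between the groups. Of 18 listed coactivator and corepressor genes, 11 were measured, while Ncoa1, Ncoa3, Ncor1, Med1, Ep300, Ncoa6 and Ncoa7 were not found by symbol on the array. Of the 11, 0 passed the limma threshold, with 1 higher and 1 lower at an unadjusted p under 0.05, and the median log2 difference was 0.01. Ppargc1b, a coactivator of PPAR and estrogen-related receptors, read -0.0050, 0.10 and 0.19 on the controls and 0.56, 0.55 and 0.50 after o-anisidine. Its difference was 0.44 (SE 0.08, adjusted p = 0.139), without overlap. Nrip1, a corepressor that estrogen itself induces, had -0.33 (SE 0.11, adjusted p = 0.371) without overlap on its brightest probe, and 4 probes ranged from -0.33 to 0.01.

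Among 11 receptor chaperones, 0 passed the limma threshold and 1 was higher at an unadjusted p under 0.05. That gene was Fkbp5, a cochaperone that restrains the glucocorticoid receptor and is itself induced by it. It read 1.46, 1.42 and 1.88 on the controls and 3.14, 3.50 and 3.19 after o-anisidine, a difference of 1.69 (SE 0.16, adjusted p = 0.0617), or 3.22-fold. Its 3 probes lay between 1.55 and 1.72. The gene passed the threshold with normexp correction (adjusted p = 0.0136), with the trend and robust variance model (0.0174) and with the mean of its probes (0.0407). The heat-shock chaperones Hsp90aa1 and Hsp90ab1 had differences of -0.02 (SE 0.14) and 0.0080 (SE 0.17), and Stub1, a ubiquitin ligase, was lower without overlap by a difference of -0.08 (SE 0.07, adjusted p = 0.685).

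Of 18 measured enzymes that make or break down steroid and vitamin D ligands, 0 passed the limma threshold, with 1 higher and 2 lower at an unadjusted p under 0.05. Hsd17b7, an enzyme of estradiol and cholesterol synthesis, read -1.67, -1.73 and -1.78 on the controls and -1.35, -1.35 and -1.41 after o-anisidine (log2 difference 0.36, SE 0.07, adjusted p = 0.151). Hsd17b1, which turns estrone into estradiol, was lower without overlap, at 2.37, 2.67 and 2.51 against 1.90, -0.18 and 1.90. Its difference of -1.31 (SE 0.57, adjusted p = 0.448) was drawn largely by o-anisidine 2. Hsd11b2, which shields the mineralocorticoid receptor from glucocorticoids, had -0.48 (SE 0.18, adjusted p = 0.416) with overlap, and Hsd11b1, which regenerates active glucocorticoid, had 0.22 (SE 0.13, adjusted p = 0.580). Cyp2r1, which makes 25-hydroxyvitamin D, was lower without overlap (-0.36, SE 0.12, adjusted p = 0.375). The last 3 were named after their values were seen.

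The genes that these receptors are known to regulate did not pass the threshold in any of the 7 target lists or in the retinoid list, with limma over all genes. The lists were not split by whether a receptor raises or lowers a gene, so a list median is no measure of receptor activity. Estrogen receptor targets lay evenly about 0, with a median of -0.0021 over 15 genes and 2 higher and 1 lower without overlap. Unadjusted p-values under 0.05 were found for 1 higher and 2 lower genes. Igf1r, the receptor of insulin-like growth factor, read -0.43, -0.49 and -0.30 on the controls and 0.15, 0.11 and 0.02 after o-anisidine (difference 0.50, SE 0.08, adjusted p = 0.124). The one lower without overlap was Nrip1, described above among the cofactors. Prlr, the prolactin receptor and a second example chosen after its values were seen, had -0.15 (SE 0.14, adjusted p = 0.723).

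Glucocorticoid receptor targets had the highest median of the target lists, 0.37 over 14 genes with 12 positive values, while Nr3c1 itself was slightly lower. Of the 14, 4 were higher and 0 lower without overlap, against 9.55% and 8.88% of all genes. The same 4 and 0 counts were reached by limma at an unadjusted p under 0.05, against 6.36% and 5.14%. Nothing is read from these counts or from the median, since the list was chosen with earlier results of these data known. Zbtb16, a zinc-finger repressor, read -5.49, -5.20 and -4.52 on the controls and -2.76, -1.58 and -3.28 after o-anisidine. Its difference was 2.53 (SE 0.47, limma adjusted p = 0.148), or 5.78-fold, and 1.77 on its second probe. The signal was dim on the controls, where the dimmest spots well above background lay between -6.19 and -6.07, which limits the fold. Mt2A, a metallothionein, had 0.35 (SE 0.08, adjusted p = 0.221), and Lcn2, a protein of injured tubules, had 1.06 (SE 0.32, adjusted p = 0.328). With Fkbp5, these make up the 4. Tsc22d3, Sgk1 and Per1, which respond within hours to glucocorticoid, overlapped between the groups, with differences of 0.14 (SE 0.38), 0.42 (SE 0.54) and 0.65 (SE 0.55). Per1 read -2.22, -3.28 and -1.69 on controls 1, 2 and 3 and -1.53, -2.67 and -1.04 after o-anisidine. Sgk1 read 2.84, 1.93 and 3.63 against 3.44, 2.37 and 3.86. Both were higher after o-anisidine at each replicate number, while Tsc22d3 was lower at number 3 (2.95 against 3.39). The SEs take no account of these numbers. By array, the median of the list stood 0.33, 0.08 and 0.73 above the control mean after o-anisidine (1, 2 and 3) and at -0.17 to 0.16 in the controls, and its median difference was 0.20 without control 2 or without o-anisidine 3 and 0.73 within the shared slide. The marker lists of red blood cells and dividing cells had larger medians than this list on the same arrays, while the medians of the other marker lists were -0.21 to 0.18. Of 6 red blood cell markers, 5 were higher without overlap and 2, Ahsp and Hemgn, passed the limma threshold, with a median of 1.53 and a summed level of 553 to 750 times the 75th percentile signal in controls and 1087 to 1310 after o-anisidine. All 5 measured markers of dividing cells were higher without overlap, 0 passed (5 had an unadjusted p under 0.05), with a median of 1.44 and a summed level of 1.78 to 2.37 against 4.38 to 7.24. Of 6 leukocyte markers, Cd52 rose by 2.12 (SE 0.17, adjusted p = 0.0380 by limma), while the list's median was -0.10 and its summed level was 90.5 to 103.3 against 74.8 to 103.4. A summed level mostly follows a list's brightest probes, here Lyz2 for leukocytes, Hba-a1 and Hbb for red blood cells and Cdk1 for dividing cells. The part of these cells in the values of the receptors and of the target lists was not tested.

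Mineralocorticoid receptor targets had a median of -0.04 over 12 genes, which was 0.05 within the shared slide or without o-anisidine 1 and -0.10 with normexp correction. There were 2 higher and 1 lower without overlap and 0 higher and 3 lower at an unadjusted p under 0.05. Scnn1b, the beta subunit of the epithelial sodium channel, read 4.12, 4.17 and 4.03 on the controls and 3.57, 3.50 and 3.61 after o-anisidine. Its difference was -0.55 (SE 0.07, adjusted p = 0.101), 1.46-fold lower, and -0.50 on its other probe. It passed the threshold under the trend and robust variance model (adjusted p = 0.0334). The gamma subunit gene Scnn1g had -0.34 (SE 0.13, adjusted p = 0.412) with overlap, the alpha subunit gene Scnn1a -0.09 (SE 0.10), and Atp1b1, a subunit of the sodium pump, was higher without overlap by 0.17 (SE 0.07, adjusted p = 0.452).

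Among 9 measured markers of the distal tubule and collecting duct, 0 passed the limma threshold and 0 higher and 3 lower had an unadjusted p under 0.05. The groups overlapped for 7, and the 2 lower without overlap were Aqp2 and Scnn1b itself. The summed level of the 9 was 250.8 to 258.9 times the 75th percentile signal in controls and 167.8, 227.1 and 233.3 on o-anisidine 1, 2 and 3. Aqp2, the brightest of the 9, weighs most in this sum. It read 6.63, 6.60 and 6.86 on the controls and 5.62, 6.37 and 6.37 after o-anisidine, with a difference of -0.58, and of -0.22 on its other probe. Podocyte markers had 2 of 6 lower without overlap and a summed level, in which Podxl weighs most, of 38.8 to 42.5 against 30.5 to 39.9. Their part in the values of Nr3c2, Scnn1b and the other distal genes was not tested.

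Vitamin D receptor targets had a median of -0.17 over 11 genes, while Vdr itself was higher. There were 1 higher and 2 lower without overlap, and 1 of each at an unadjusted p under 0.05. Cyp24a1, which inactivates vitamin D and is the classic target of the receptor, ranged from 0.49 to 1.78 on the controls and from 1.40 to 1.85 after o-anisidine, with overlap (difference 0.49, SE 0.33, adjusted p = 0.611). Trpv6, a calcium channel, was higher without overlap (0.91, SE 0.30, adjusted p = 0.360). Slc8a1, a sodium-calcium exchanger, was lower without overlap on its brightest probe (-0.57, SE 0.11, limma adjusted p = 0.152), and its 4 probes ranged from -0.57 to -0.24. The calcium-sensing receptor gene Casr was also lower without overlap (-0.34, SE 0.14, limma adjusted p = 0.437). The list's median was -0.05 without control 2, -0.06 without o-anisidine 1 and -0.10 with the mean of probes.

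PPAR-alpha targets had a median of -0.10 over 27 genes with 18 negative values; it was -0.05 without control 3 or without o-anisidine 1 and -0.18 without o-anisidine 3. There were 0 higher and 4 lower without overlap. Unadjusted p-values under 0.05 were found for 0 higher and 2 lower genes. Fabp1, a fatty acid carrier, read -4.20, -4.08 and -3.53 on the controls and -4.62, -4.96 and -4.29 after o-anisidine (difference -0.69, SE 0.24, adjusted p = 0.373). Acot3, a thioesterase, had -0.69 (SE 0.28, adjusted p = 0.435). Cpt1a, which admits fatty acids to the mitochondrion, had 0.18 (SE 0.20). Relative to the control mean, the median of the list stood at -0.31, -0.02 and -0.10 on the treated arrays 1, 2 and 3, and Ppara itself at 0.68, 0.79 and -0.42; their relation was not tested.

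Of 24 listed targets of the pregnane X and constitutive androstane receptors, 13 were measured, and the liver-type monooxygenase genes Cyp3a2, Cyp3a9, Cyp3a18, Cyp3a62, Cyp2b1 and Cyp2b12 were among those not well above background. The 13 had a median of 0.09, which was 0.03 within the shared slide, 0.06 with normexp correction and between 0.04 (without control 3 or o-anisidine 1) and 0.21 (without o-anisidine 3) when single arrays were left out. There were 1 higher and 1 lower without overlap and 1 higher and 0 lower at an unadjusted p under 0.05. Ugt1a1, a glucuronosyltransferase that also answers to the aryl hydrocarbon receptor, read 1.85, 1.66 and 1.72 on the controls and 2.21, 2.50 and 2.37 after o-anisidine (difference 0.62, SE 0.10, adjusted p = 0.125). UGT1A genes share their last exons, so signals of related transcripts on 1 probe may not be told apart. Alas1, the first enzyme of haem synthesis, was lower without overlap (-0.32, SE 0.13, adjusted p = 0.435), and Por, the electron donor of these monooxygenases, had 0.32 (SE 0.14, adjusted p = 0.462) with overlap.

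Farnesoid X receptor targets had a median of 0.25 over 10 genes with 8 positive values, and 1 higher and 1 lower without overlap and the same counts at an unadjusted p under 0.05. The median was 0.14 without control 1 and 0.15 with normexp correction. Abcb11, the bile salt export pump, was dim but separated, at -4.51, -4.28 and -5.30 on the controls and -4.01, -2.87 and -3.63 after o-anisidine (difference 1.199, SE 0.37, adjusted p = 0.340). Nr0b2, the corepressor that is the receptor's best-known target, had 0.10 (SE 0.20, adjusted p = 0.884). Aqp2, the water channel of the collecting duct, was lower without overlap on its brightest probe (-0.58, SE 0.22, limma adjusted p = 0.412), with -0.22 on its other probe. It is also one of the distal markers above.

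The retinoid list, which holds partners of Rxra and the genes that carry and convert vitamin A, had a median of -0.0071 over 17 genes. There were 2 higher and 1 lower without overlap, and 3 higher and 1 lower at an unadjusted p under 0.05. Rbp4, the carrier of retinol in plasma, read 0.65, 0.07 and 0.50 on the controls and 2.65, 1.57 and 2.72 after o-anisidine. Its difference was 1.91 (SE 0.34, adjusted p = 0.136), or 3.75-fold, with 1.92 on its second probe. Aldh1a2, which makes retinoic acid, was higher without overlap (0.58, SE 0.20, adjusted p = 0.377), and Cyp26a1, which removes it, was lower (-0.57, SE 0.18, adjusted p = 0.336).

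**Figure D4:**
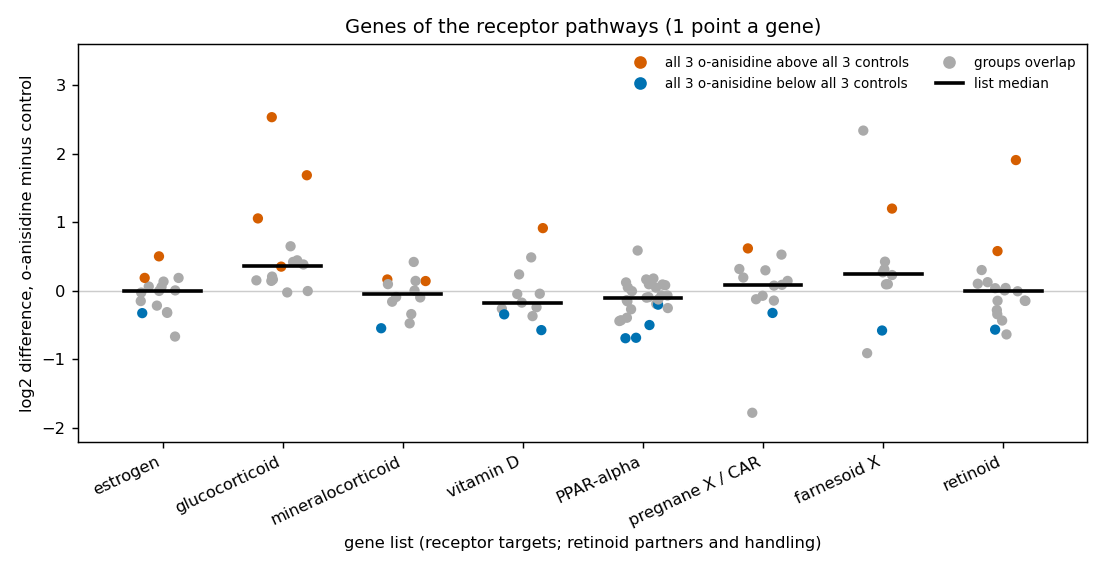
Log2 difference between o-anisidine and control (y axis) for each measured gene of 7 receptor target lists and the retinoid list (1 point a gene, black bars list medians); colours mark genes whose 3 treated arrays all lie above (orange) or below (blue) all 3 controls. The glucocorticoid list has the highest median of these, 0.37, with Zbtb16 (dim on the controls) at 2.53 and Fkbp5 at 1.69. Nothing is read from this rank, since the lists were chosen with earlier results of these data known. No gene shown passed the threshold over all genes.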

How the data were processed

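RNA of 6 rats was measured on single-colour Agilent arrays, labelled with Cy3 per the labels' protocols. The deposited scanner files give an intensity per spot, read with version 10.7.1.1 of Agilent Feature Extraction per the file headers (10.7 per the submitters' processing notes). The processed intensity used was already background-subtracted and detrended, per the file headers, and not scaled between arrays. The other deposited columns were flags, with values of 0 or 1, for spots well above background, saturated or outlying. The authors' value table holds an intensity scaled between arrays, linear and uncentred, with column medians of 0.104 to 0.108. Its columns and the scanner files match within groups but under different replicate numbers (r = 1.00), so replicate numbers, which follow the scanner files, are uncertain. It served as an alternative only.

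Values were log2 of the processed intensity minus each array's 75th percentile over 61657 probes. A filter on dim probes asked for a signal well above background throughout 1 group (all 3 arrays), and 16 probes with an outlier flag were dropped, leaving 42036 probes and 31087 genes, each represented by its brightest kept probe. Accessions were named through the RefSeq table of GRCr8 (27460 probes, 15284 symbols), and promoters come from RefSeq on the same assembly. Groups were compared with limma 3.58.1 in R 4.3.3 (lmFit, eBayes, two-sided, no covariates, 4 residual and 2.11 prior degrees of freedom) with Benjamini-Hochberg adjustment. SEs of probes other than the brightest come from the same fit over kept probes. The statistics were tested on simulated data.

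Some single genes of the lists are counted but not reported here by name. Members and gene lists were chosen with earlier results of these data known. By the rule for named genes, all 9 members, the 5 genes most like Esr1 and, in each list without a call, the member of smallest p and the largest differences without overlap in each direction are named. Other names, where not marked, are background examples chosen after their values were seen. Alternatives were the background correction, scaling, filter, slide, replicate block, variance model, probe averaging, the authors' table and leaving out each array.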

Additional observations from a re-analysis of the deposited data

How the results depend on the processing

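Counts over all genes depended on the settings. The 11 higher and 8 lower genes became 68 and 18 with normexp correction, 91 and 29 with the trend and robust variance model, 2 and 1 with slide as a fixed block, 1 and 1 on the slide with both groups, 5 and 6 without the filter on dim probes, and 9 and 5 where a probe had to be above background everywhere. With the replicate block there were 1 and 0 (limma, with 1839 higher and 1445 lower at an unadjusted p under 0.05). Same-numbered samples deviated together at r = 0.01 to 0.08 over all tested genes, and differently numbered ones at -0.05 to 0.03. The series design gives only the 2 groups, so the main fit did not take the numbers to pair the samples. In single genes, such as Nr1d1 and Per1, chosen after their values were seen, the arrays followed their numbers alike in both groups. Whether the numbers pair the samples is not known. Leaving out 1 array gave 2 to 16 higher and 1 to 5 lower genes, fewest without o-anisidine 3 and most without o-anisidine 2. Esr1 had a log2 difference of -0.19 with normexp correction and of -0.83 to -0.65 when single arrays were left out. Among the gene lists, 1 chaperone and 1 glucocorticoid target, in both lists Fkbp5, passed with normexp correction, the variance model with trend and the mean of probes, and 1 mineralocorticoid target, Scnn1b, passed with the variance model. The causes were not tested. Esr1 and Nr1i3 were dim, which limits both.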

Other observations

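The third Nr3c2 probe stood apart on o-anisidine 3 in a way few probes did. Of 42036 kept probes, it was the only 1 whose value on o-anisidine 3 lay more than 3 log2 units above all other arrays, and on the other arrays 1 to 5 probes did so. It carried no outlier flag, and it was chosen after its values were seen.

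Correlations of members within groups rest on few arrays. After each group mean was subtracted, the correlations largest in size among 36 pairs were those of Nr1i3 and Nr1h4 (r = 0.97), Ppara and Rxra (0.91), and Vdr and Rxra (-0.86). They are a description over 6 shared arrays, and Nr1i3 was near background. By the same measure, 78 of 12006 other genes with a symbol had r above 0.95 with Esr1.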
